A study of Mus musculus with 6 samples.

Results

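The genes described here are 38 mouse genes of antioxidant defence: the metallothioneins, the enzymes that make and use glutathione, the peroxiredoxin and thioredoxin systems, superoxide dismutases, catalase, sestrins, and the regulator Nrf2 with several of its targets. They were listed by function, with earlier results of these data known, and all 38 were found by symbol among the 57180 gene rows of the deposited table. The table holds 6 libraries of cells grown out of mouse skull vault bone (calvaria) and kept in a medium that drives bone formation, containing ascorbate and β-glycerophosphate. The protocol runs wt and gld cultures side by side for 72 h from day 14 of differentiation. The 3 wt libraries are from C57BL/6 cells. The 3 gld libraries are from cells of B6Smn.C3-Faslgld/J mice, which are homozygous for gld, a mutation in Fasl (Fas ligand), and their label reads FasL KO. By its name the gld strain carries a C3H-derived Fasl segment on a C57BL/6 background. The protocol also describes gld cells given recombinant Fas ligand, which are not analysed here, and it gives no age, sex or number of animals. The labels do not tell whether each library is its own animal or culture, so the p-values weigh differences only against library spread, which may be technical.

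Cells limit oxidants through linked enzyme systems. Superoxide dismutases turn superoxide into hydrogen peroxide, and catalase, glutathione peroxidases and peroxiredoxins remove the peroxide. Glutathione peroxidases and peroxiredoxins do so with electrons that come from glutathione or thioredoxin and, in the end, from NADPH. Metallothioneins are small cysteine-rich proteins that bind zinc and copper. Keap1 holds the transcription factor Nrf2 (gene Nfe2l2) for degradation, and under oxidative or electrophilic stress Nrf2 binds antioxidant response elements near many of these genes. In bone, oxidant load is known to bear on both osteoblast and osteoclast function.

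The antioxidant response element has a short core that is commonly written TGACNNNGC, TGAGNNNGC or TGATNNNGC, and these 3 forms were searched on both strands in the 250 bases before each RefSeq transcript start. The windows of 4 genes are shown because they hold these letters and because the genes behaved differently: Nfe2l2 and Srxn1 fell in gld, while Prdx1 and Gclm did not pass the test. Each is written 5′ to 3′ on the gene's strand in build GRCm38, without bases that lie in a protein-coding gene's exon, and capitals mark the matches.
Nfe2l2 (chr2:75704664-75704913, minus strand): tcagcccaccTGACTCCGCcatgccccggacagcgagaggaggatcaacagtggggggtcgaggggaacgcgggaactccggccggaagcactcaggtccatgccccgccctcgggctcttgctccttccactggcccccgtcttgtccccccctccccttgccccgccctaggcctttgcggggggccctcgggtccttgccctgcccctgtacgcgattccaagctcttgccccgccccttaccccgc
Srxn1 (chr2:152105274-152105515, plus strand): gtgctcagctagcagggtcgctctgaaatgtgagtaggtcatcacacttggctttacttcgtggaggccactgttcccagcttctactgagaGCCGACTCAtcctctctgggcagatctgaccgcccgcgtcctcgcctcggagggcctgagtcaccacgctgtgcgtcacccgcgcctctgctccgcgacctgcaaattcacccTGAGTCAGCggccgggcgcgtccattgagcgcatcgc
Prdx1 (chr4:116685349-116685543, plus strand): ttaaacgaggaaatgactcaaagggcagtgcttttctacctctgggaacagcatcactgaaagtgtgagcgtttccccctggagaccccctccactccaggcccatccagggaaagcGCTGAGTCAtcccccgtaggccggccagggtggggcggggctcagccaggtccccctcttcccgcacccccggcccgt
Gclm (chr3:122245307-122245556, plus strand): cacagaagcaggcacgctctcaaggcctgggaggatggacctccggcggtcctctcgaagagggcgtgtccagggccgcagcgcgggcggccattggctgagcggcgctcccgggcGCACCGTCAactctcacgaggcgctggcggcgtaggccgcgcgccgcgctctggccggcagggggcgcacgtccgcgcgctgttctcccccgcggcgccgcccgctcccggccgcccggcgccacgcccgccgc

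Srxn1 has a pair of matches, and TGAGTCAGC, the one nearer the start, begins 45 bases before it. In Prdx1 the match begins 133 bases before the start, in Gclm 134 and in Nfe2l2 240. RefSeq windows were found for 32 of the 38 genes, and 12 of these genes hold a match in any of their windows. Of all 32851 windows, 28.5% hold one. The TGACNNNGC form alone, which was searched first, is in 9 of the 32 genes and in 10.2% of all windows. Some genes, such as Gpx4 and Txnrd1, have several windows, so shares of genes and shares of windows are not like measures. Of the 17 tested genes with a window, 6 hold a match: Nfe2l2, Srxn1, Prdx1, Gclm, Gstt1 and Sesn2. A match is only a run of letters and does not show that Nrf2 binds there.

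The libraries held between 2011173 and 5245546 counts, and each wt library was smaller than each gld library. Levels are CPM, counts relative to the library size after TMM scaling, which assumes that most genes do not change. The reads were 3′ tags, about 1 per transcript, so CPM were not divided by gene length. Osteoblast identity could be read only in part: Col1a1 held 409079 counts over the 6 libraries, but Bglap, Spp1 and Sp7 held 1, 4 and 20. The annotated 3′ end of Spp1 is shared by several transcripts and that of Sp7 in part, but 89% of that of Bglap lies in a single transcript. Ifitm5, whose end lies wholly in a single transcript, held 35 counts. Ibsp, Dmp1 and Phex held 3, 2 and 0 counts in wt against 97, 71 and 91 in gld. Of 14 osteoblast markers 8 were tested, with 6 higher and 1 (Alpl) lower in gld, beside 9.74% and 7.69% of all genes tested.

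Counts of the 38 genes followed the shape of their annotated 3′ ends. In 17 genes at least 99% of the last 300 exonic bases of the principal transcript lie in that transcript alone, and 16 of these could be tested, with a median of 1819 counts over the 6 libraries. In the 21 others the end is shared by several transcripts of the gene, 6 could be tested, and the median was 16 counts. Under 30 counts were held by 0 of the 17 and by 12 of the 21. Over all protein-coding genes the contrast was weaker, with 51.5% of those with a single end and 79.1% of the others under 30 counts. Mt2, Gpx4, Gstm1, Gstm5, Gstp1, Mgst1 and Txnip, all with shared ends, were listed at 0 in every library, as was the everyday gene Gapdh. A value of 0 here therefore shows only that no read was assigned. Another 9 genes had counts but did not pass the low-count filter, among them Mt1, Prdx2, Prdx5, Prdx6, Txnrd1, Sod1 and Sesn1. Glutathione S-transferases have closely similar copies, and Prdx1 and Txn1 have processed pseudogenes, so their counts depend on how such reads were assigned.

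**Figure D1:**
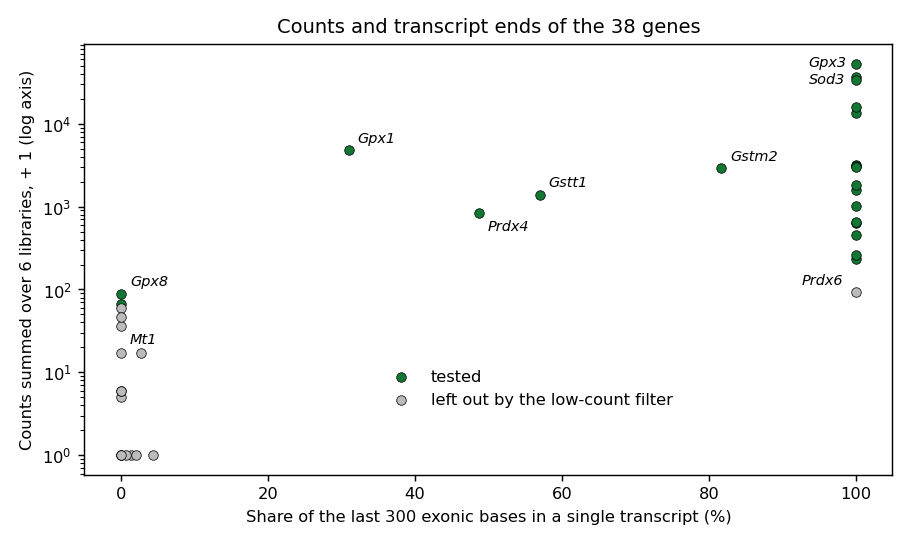
Counts of the 38 genes summed over 6 libraries plus 1 (vertical, log axis) against the share of the last 300 exonic bases that lies in a single annotated transcript (horizontal, percent). Green genes were tested and grey genes were left out by the low-count filter; the 7 genes at 0 all sit at the far left, and of the genes at the far right Prdx6 was the only one left out.

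Of the 22 genes tested, 5 were higher in gld, 5 were lower and 12 did not pass (edgeR quasi-likelihood test, adjusted p threshold 0.05). Without wt 1, gld 1 or gld 3 the number higher was 3. That is 45.5% called, against 17.4% of all 8692 genes tested, 9.74% of which were higher and 7.69% lower. The tested members are abundant, with a median of 79.7 CPM against 22.2 CPM over all tested genes. Of those with a mean of at least 10 CPM, 9 of 19 were called, against 22.6% of all genes at that level. The median log2 fold change was −0.04, beside 0.02 over all genes tested, so the list moved in no single direction. The share of the 38 genes in a library was 0.881% ± 0.0241 for wt and 0.788% ± 0.0743 for gld (SD, n = 3). Scaled by library size alone, the median over all genes went from 0.02 to −0.14 and 720 genes were called higher and 975 lower, in place of 847 and 668. On that scale the calls of Prdx4 and Cat were lost and the other 8 remained.

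**Figure D2:**
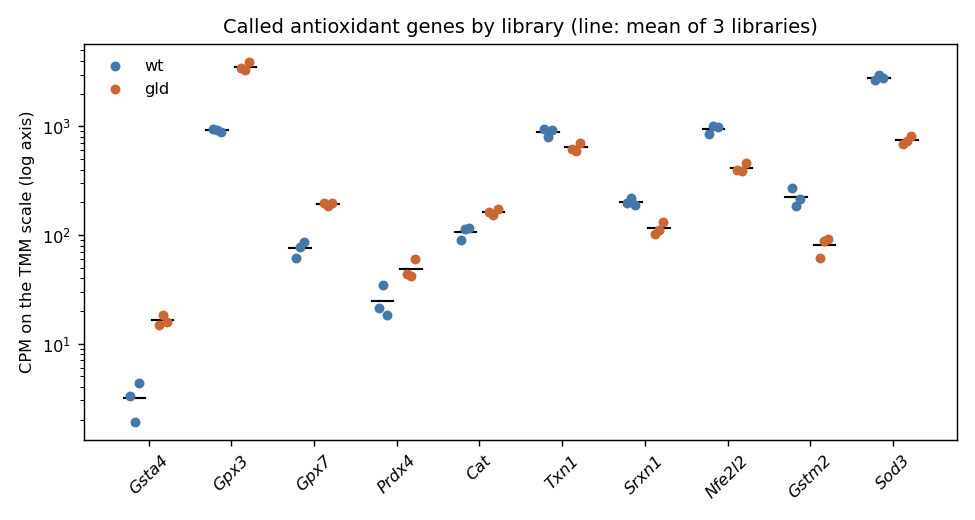
CPM on the TMM scale (log axis) of the 10 called genes in each of 3 wt (blue) and 3 gld (orange) libraries, with a line at each group's mean, ordered by fold change. The groups do not overlap in any of the 10, but these genes were picked by the test, so this is no further support. The share of all genes without overlap was not counted. Gsta4 is the least abundant of the 10, at 3.16 CPM in wt.

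Among abundant transcripts the clearest shift was between 2 secreted enzymes. Gpx3, the extracellular glutathione peroxidase, rose 3.87-fold in gld, and Sod3, the extracellular superoxide dismutase that binds heparan sulfate in the matrix, was 3.76-fold higher in wt. Gpx3 (ENSMUSG00000018339, GRCm38 chromosome 11, 54902453 to 54910377, plus strand) had 937, 926 and 896 CPM in the wt libraries and 3460.5, 3286 and 3917 in the gld libraries. All 3 gld libraries lay far above all 3 wt libraries, and the wt values differed little among themselves. The log2 fold change was 1.95 ± 0.10 (SE, edgeR adjusted p = 5.84e-09). Sod3 (ENSMUSG00000072941, chromosome 5, 52363791 to 52371418, plus strand) had 2663, 2979 and 2764 CPM in wt and 687, 727 and 822 in gld. Here every wt library lay above every gld library. The log2 fold change was −1.91 ± 0.10 (SE, edgeR adjusted p = 1.15e-08). In bulk RNA, fewer cells of a type that makes a transcript and less of it per cell cannot be told apart. The summed osteoblast, chondrocyte and adipocyte markers differed between the groups as well. Of all genes tested, 9.74% were higher in gld and 7.69% lower. The summed osteoblast markers ran from 16814 to 24635 CPM in wt and from 63347 to 69938 in gld, mostly Col1a1 and Col1a2. Of 8 chondrocyte markers 5 were tested and all 5 were higher, with sums of 212 to 224 CPM in wt and 1048 to 1110 in gld. These sums were mostly Sox9, at means of 215 CPM in wt and 788 in gld, while Col2a1 held 9 counts and Col9a1 none. Of 7 adipocyte markers Lpl alone was tested and fell, with sums of 476 to 679 CPM in wt and 91.6 to 129 in gld, and Plin1, Pparg, Cidec and Cfd at 0. Plin1 has an end in a single transcript, while the ends of Pparg, Cidec and Cfd are shared. Of 6 endothelial markers 2 were tested and did not pass, with sums of 0.940 to 5.22 CPM in wt and 4.48 to 15.7 in gld and the other 4 at 0. Among those at 0, Cdh5 has an end in a single transcript. The part of these cell types in the results was not tested.

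Within a library the ratio of the counts of these genes does not depend on scaling. Gpx3 over Sod3 was 0.352, 0.311 and 0.324 in wt and 5.04, 4.52 and 4.77 in gld, or 0.329 ± 0.0210 against 4.78 ± 0.261 (SD, n = 3). Both genes have an end in a single transcript. Sod3 supplied 33.3% ± 1.84 of all counts of the 38 genes in wt and 8.89% ± 0.466 in gld. Gpx3 supplied 10.9% ± 0.352 in wt and 42.4% ± 0.496 in gld. Of the 38 genes Sod3 thus gave the most counts in each wt library and Gpx3 in each gld library.

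**Figure D3:**
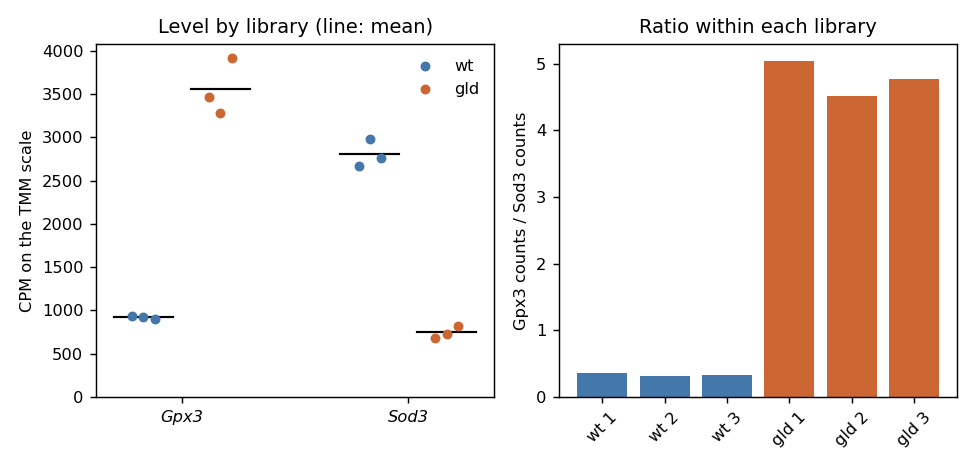
Left, CPM on the TMM scale of Gpx3 and Sod3 in each library with the group mean as a line; right, the ratio of Gpx3 to Sod3 counts within each library (bars, from 0). The ratio lies between 0.311 and 0.352 in wt and between 4.52 and 5.04 in gld.

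Among the other glutathione peroxidases, Gpx7, which acts in the endoplasmic reticulum during oxidative protein folding, also rose. It had 62.0, 77.8 and 86.9 CPM in wt and 197, 185 and 196 in gld. The gld libraries lay close together and above all wt libraries, with a log2 fold change of 1.34 ± 0.17 (SE, edgeR adjusted p = 3.97e-05). Gpx1, the abundant cytosolic peroxidase, had 247 ± 18.7 CPM in wt and 207 ± 31.4 in gld (SD, n = 3). Its groups overlapped and it did not pass (log2 fold change −0.26 ± 0.15, edgeR adjusted p = 0.289). Gpx8, a second peroxidase of the endoplasmic reticulum, had only 10, 15 and 13 counts in the wt libraries against 28, 12 and 10 in gld, too few to resolve a difference (−0.14 ± 0.85, edgeR adjusted p = 0.954).

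The glutathione S-transferases, which join glutathione to reactive compounds, went in both directions. Gsta4, whose enzyme clears the lipid peroxidation product 4-hydroxynonenal, had 7, 6 and 14 counts in the wt libraries against 60, 70 and 77 in gld. In CPM it was at 3.29, 1.90 and 4.30 in wt and 14.97, 18.5 and 15.8 in gld. It rose by 2.36 ± 0.55 on the log2 scale, the largest rise among the 22 genes, from a low level (edgeR adjusted p = 0.00740). Gstm2, a mu-class transferase, had 269, 184 and 216 CPM in wt and 61.1, 88.3 and 92.4 in gld. It fell by 1.46 ± 0.19 on the log2 scale without overlap of the groups (edgeR adjusted p = 7.45e-05). The theta-class Gstt1 had 49.3, 52.2 and 55.3 CPM in wt and 77.3, 49.0 and 93.0 in gld, where gld 2 lay below every wt library (0.49 ± 0.25, edgeR adjusted p = 0.222). Mgst3, a microsomal transferase with peroxidase activity, had 9.01 ± 2.41 CPM in wt and 14.8 ± 4.33 in gld (SD, n = 3), without overlap of the groups but with a log2 fold change of 0.70 ± 0.47 that did not pass (edgeR adjusted p = 0.392).

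Nfe2l2 itself was lower in gld. This gene (ENSMUSG00000015839, chromosome 2, 75675513 to 75704641, minus strand) had 852, 999.6 and 995 CPM in wt and 396, 389 and 459 in gld. The wt mean was 2.29 times the gld mean and no libraries of the groups overlapped. The log2 fold change was −1.19 ± 0.12 (SE, edgeR adjusted p = 4.33e-06). Keap1, which targets Nrf2 for degradation, had 0, 19 and 4 counts in the wt libraries against 17, 17 and 9 in gld, so no difference was detectable at this depth (0.50 ± 1.16, edgeR adjusted p = 0.853).

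Of the 3 classical Nrf2 targets outside the glutathione and thioredoxin groups, 1 fell and the others did not pass. Srxn1, the sulfiredoxin that restores overoxidized peroxiredoxins, had 198, 218 and 189.7 CPM in wt and 103, 112 and 132 in gld. It fell by 0.81 ± 0.15 on the log2 scale, with all gld libraries below all wt libraries (edgeR adjusted p = 0.00157). Hmox1, the inducible haem oxygenase, had 71.4, 83.5 and 65.1 CPM in wt and 55.9, 65.4 and 99.6 in gld. The highest and the lowest of these 6 values were both gld libraries, and the log2 fold change was 0.01 ± 0.24 (edgeR adjusted p = 0.990). Nqo1, a quinone reductase, had 25.4, 9.80 and 23.9 CPM in wt and 31.4, 16.6 and 21.1 in gld (0.23 ± 0.42, edgeR adjusted p = 0.800). The highest was gld 1 and the lowest wt 2, while gld 2 and gld 3 lay below wt 1 and wt 3.

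Transcripts for making and recycling glutathione did not pass the test. Gclc, the catalytic subunit of the rate-limiting enzyme, was at 88.7 ± 5.45 CPM in wt and 83.3 ± 1.94 in gld (SD, n = 3), with a log2 fold change of −0.09 ± 0.17. Its modifier subunit gene Gclm was at 37.0 ± 11.1 and 24.8 ± 3.84 CPM (−0.58 ± 0.31), and Gsr, which reduces oxidized glutathione, at 33.0 ± 3.18 and 29.8 ± 10.8 CPM (−0.14 ± 0.31). The edgeR adjusted p was 0.813 for Gclc, 0.252 for Gclm and 0.842 for Gsr, and each gene's groups overlapped. Gss, the last enzyme of the synthesis, held 13 counts in wt and 3 in gld and was not tested.

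**Figure D4:**
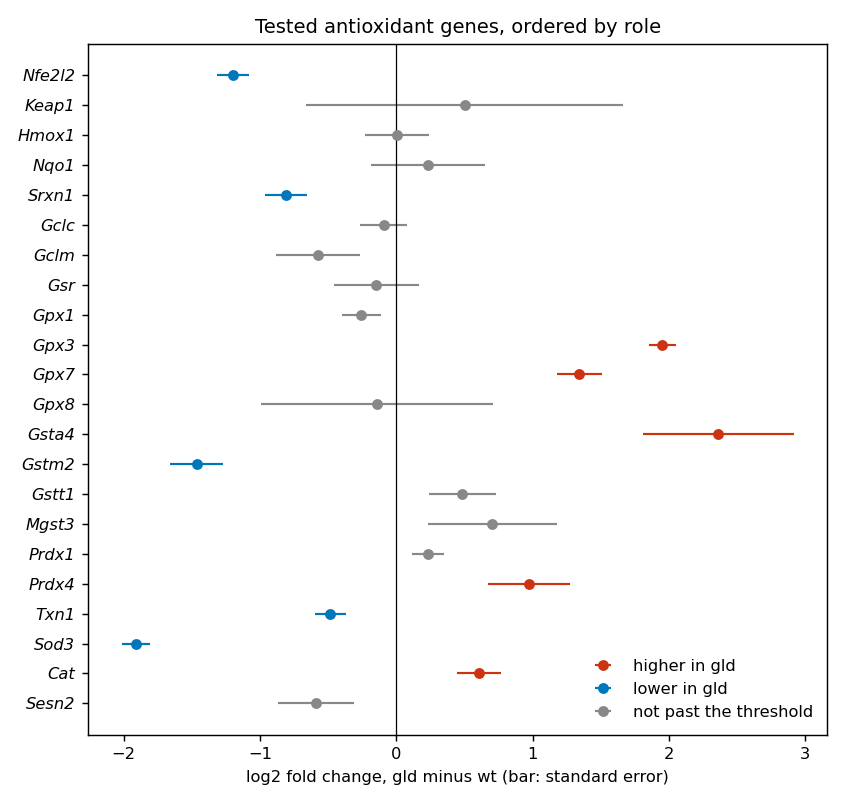
Log2 fold change, gld minus wt, of the 22 tested genes with its standard error as a bar, ordered by role from Nrf2 to the sestrins. Red genes were called higher, blue genes lower, and grey genes did not pass an edgeR adjusted p of 0.05; Keap1 and Gpx8 have the widest bars, on 66 and 88 counts in all.

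Of the peroxiredoxins and the thioredoxin system 3 genes could be tested, of which Prdx4 rose, Txn1 fell and Prdx1 did not pass. Prdx4, the peroxiredoxin of the secretory pathway, had 21.1, 34.5 and 18.4 CPM in wt and 44.2, 42.2 and 59.5 in gld. It rose by 0.97 ± 0.30 on the log2 scale without overlap, close to the threshold (edgeR adjusted p = 0.0387). The call was not kept in 7 of the 13 alternatives, namely without wt 1, wt 3, gld 1, gld 2 or gld 3, with the replicate block, and with library size alone, where the adjusted p went up to 0.159. Prdx1, the cytosolic enzyme and the peroxiredoxin with the most counts, was at 1565 ± 102 CPM in wt and 1839.6 ± 270 in gld (SD, n = 3). Its groups overlapped and it did not pass (0.23 ± 0.11, edgeR adjusted p = 0.207). Txn1, the cytosolic thioredoxin that reduces peroxiredoxins, had 947, 798 and 936 CPM in wt and 614, 599 and 705 in gld. It fell by 0.48 ± 0.12 on the log2 scale, a modest but non-overlapping difference (edgeR adjusted p = 0.00845).

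Catalase (Cat), the peroxisomal enzyme that breaks down hydrogen peroxide, had 89.3, 114 and 116 CPM in wt and 164, 152 and 172 in gld. It rose by 0.61 ± 0.16 on the log2 scale, with all gld libraries above all wt libraries (edgeR adjusted p = 0.0171). The call was lost with library size alone and without wt 1, gld 1 or gld 3, with adjusted p up to 0.0863. Catalase is also abundant in red blood cells. Their 6 markers held 1 count in all, although Hba-a1, Hba-a2 and Alas2 have shared ends, and their part in the result was not tested. Sesn2, a stress-induced sestrin that acts on nutrient signalling and antioxidant defence, had 55.9, 59.1 and 62.6 CPM in wt and 26.4, 34.3 and 57.1 in gld. The gld 3 library lay among the wt values, and Sesn2 did not pass (−0.59 ± 0.28, edgeR adjusted p = 0.195). Without gld 3 the log2 fold change was −0.98 and passed (edgeR adjusted p = 0.0241).

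Prdx6, which reduces phospholipid hydroperoxides, lies 0.539 Mb from Fasl (chromosome 1, 161240112 to 161251219, minus strand), within the neighbourhood that the gld strain may carry from C3H. It had 5, 23 and 54 counts in the wt libraries against 2, 2 and 6 in gld, or 8.73 ± 7.23 against 0.753 ± 0.415 CPM (SD, n = 3). It did not pass the low-count filter. Where it was tested with no filter its log2 fold change was −3.46 ± 1.11 (edgeR adjusted p = 0.0247), and with a filter of 1 CPM −3.45 ± 1.00 (edgeR adjusted p = 0.0306), but without wt 3 it was −2.62 with an edgeR adjusted p = 0.332. It did not pass either without wt 2, gld 1 or gld 2, with edgeR adjusted p = 0.0572, 0.0761 and 0.0819. Without wt 1 or gld 3 it passed, with edgeR adjusted p = 0.0158 and 0.0380. The wt libraries were themselves far apart. Whether sequence differences between the strains affect read assignment there was not tested. Mgst3, the only other of the 38 genes on that chromosome, lies 5.60 Mb from Fasl.

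The metallothioneins could not be compared. Mt1 had 1, 14 and 4 counts in the wt libraries against 16, 0 and 0 in gld, and Mt2 was listed at 0 in all 6 libraries. None of the last 300 exonic bases of Mt1 and 1.3% of those of Mt2 lie in a single transcript. Similarly, Prdx2 (wt counts of 20, 16 and 0 against gld counts of 7, 9 and 7) and Sod1 (0, 16 and 5 against 15, 6 and 4) scattered within groups, and 122 of the last 300 bases of Prdx2 are also covered by Junb on the other strand. Txnrd1, Sesn1, Gsto1 and Prdx5 held between 4 and 16 counts over all 6 libraries.

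A wider list of 136 other genes of redox and metal metabolism was read from the same fit. Of these, 60 could be tested, 9 were higher, 11 were lower and 40 did not pass, so 33.3% were called, against 17.4% of all genes tested, 9.74% higher and 7.69% lower. The median log2 fold change was −0.05. The number lower was 4 without wt 3 or gld 2, 6 without wt 2 and 7 with the replicate block; the number higher was 6 without gld 3. Among Nrf2 partners and further targets, 2 rose and 2 fell of 14 tested. Bach1, the repressor that competes with Nrf2 at its elements, went from 63.4 ± 13.1 to 113 ± 9.33 CPM (SD, n = 3), a log2 rise of 0.83 ± 0.20 (edgeR adjusted p = 0.00871). This call was lost without wt 3 or gld 2. Mafg, a small Maf partner of both factors, fell by 0.55 ± 0.15 (edgeR adjusted p = 0.0182), a call lost without wt 2, wt 3 or gld 2. The haem transporter gene Slc48a1 fell by 1.03 ± 0.11, from 827 ± 77.4 to 406 ± 5.79 CPM (edgeR adjusted p = 1.24e-05). Akr1c14, an aldo-keto reductase gene, had 3, 0 and 0 counts in the wt libraries against 32, 18 and 53 in gld, a pooled ratio of 23.2 (95% exact counting interval 7.71 to 114, edgeR adjusted p = 0.0313). Its call was lost in 7 of 13 alternatives, including without wt 2, wt 3 or any gld library, and its log2 fold change ran from 3.57 without wt 3 to 7.92 without wt 1.

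Genes around glutathione changed in both directions. Of 9 other glutathione enzymes tested, the theta-class Gstt3 went from 51.9 ± 16.0 to 118 ± 8.31 CPM, a log2 rise of 1.18 ± 0.22 (edgeR adjusted p = 0.00152). Hpgds, a sigma-class transferase that makes prostaglandin D, rose by 3.28 ± 0.79 (edgeR adjusted p = 0.00902). Its counts were 0, 12 and 8 in wt against 82, 29 and 180 in gld, with gld 3 the highest. Without gld 3 the log2 value was 2.65 and did not pass (edgeR adjusted p = 0.0887), nor did it in limma-voom, and without wt 2 it was 3.94. The glutaredoxin genes Glrx3 and Glrx5 fell by 0.42 ± 0.13 and 0.80 ± 0.23 (edgeR adjusted p = 0.0321 and 0.0278), and these calls were lost in 6 and 4 alternatives, each time without wt 3, gld 1 or gld 2 among others. Of 7 tested genes of glutathione turnover and cystine supply, Abcc1, an exporter of glutathione conjugates, fell by 1.67 ± 0.24, from 203 ± 29.0 to 63.7 ± 22.9 CPM (edgeR adjusted p = 0.000152). Cth, which makes cysteine from cystathionine, had 9, 17 and 19 counts in wt and none in gld, at least 21.7-fold lower by a floor of 3 counts over the gld group (edgeR adjusted p = 0.00660). Without wt 3, or with the replicate block, Cth did not pass.

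Of the 3 tested NADPH supply genes 2 fell, where 7.69% of all genes tested did. Mthfd2, a mitochondrial folate enzyme, and G6pdx, the entry enzyme of the pentose phosphate pathway, had log2 changes of −0.79 ± 0.23 and −0.60 ± 0.20 (edgeR adjusted p = 0.0292 and 0.0498). These calls were lost in 4 and 8 of the 13 alternatives, both of them without wt 3, gld 1 or gld 2. Of 11 other thioredoxin, peroxiredoxin, dismutase and sulfoxide reductase genes tested, Msrb3 alone passed, or 9.09%, against 17.4% of all genes tested. Msrb3 fell by 0.46 ± 0.14 (edgeR adjusted p = 0.0335), a call lost in 5 alternatives, among them without wt 2, wt 3, gld 2 or gld 3. The mitochondrial Sod2 was at 135 ± 4.84 CPM in wt and 124 ± 12.8 in gld (SD, n = 3, −0.13 ± 0.16, edgeR adjusted p = 0.689).

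Of 10 tested genes of metal handling, 2 rose and 2 fell, beside 9.74% and 7.69% of all genes. Slc30a1, the zinc exporter of the plasma membrane, had 32.9, 39.2 and 17.2 CPM in wt and 67.6, 56.2 and 70.2 in gld. Its log2 rise was 1.12 ± 0.29 (edgeR adjusted p = 0.0149), a call lost without wt 3 or gld 3. The zinc importer genes Slc39a10 and Slc39a14 fell by 1.14 ± 0.22 and 0.58 ± 0.17 (edgeR adjusted p = 0.00168 and 0.0291), and the second call was lost without wt 1, wt 2, gld 2 or gld 3. Slc40a1, the iron exporter ferroportin, had 3, 1 and 6 counts in the wt libraries against 76, 54 and 126 in gld and rose by 4.03 ± 0.66 (edgeR adjusted p = 0.000500).

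Of 6 tested genes for sources of superoxide and peroxide, 3 rose, where 9.74% of all genes did. Cybb, the catalytic subunit of the phagocyte NADPH oxidase, had 0, 16 and 0 counts in the wt libraries against 351, 464 and 1314 in gld. Its log2 rise was 6.41 ± 0.69 (edgeR adjusted p = 1.02e-05), but all wt counts came from 1 library. The fitted rise became 12.2 without wt 2, 5.76 when wt 3 was left out and 5.79 when gld 3 was, and in limma-voom Cybb did not pass (adjusted p = 0.0757). Rac2, a GTPase that activates that oxidase, had no count in wt and 482, 253 and 761 in gld, at least 326-fold higher by a floor of 3 counts over the wt group (edgeR adjusted p = 3.04e-07). Maob, a monoamine oxidase that releases peroxide, rose by 1.04 ± 0.32 (edgeR adjusted p = 0.0376), a call lost in 7 alternatives, among them without each library in turn other than wt 3.

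Macrophage and osteoclast markers moved with these groups. Of all genes tested, 9.74% were higher in gld and 7.69% lower. Of 24 markers 10 could be tested, 8 were higher and 2, Cd14 and Cd53, were lower. Their summed level ran from 542 to 768 CPM in wt and from 2787 to 6818 in gld, while Csf1r, Adgre1, Tyrobp, Fcer1g, Ctss, Acp5, Aif1 and Dcstamp were listed at 0. Among these genes at 0, Csf1r alone has an end in a single transcript. The wt sum was mostly Cd14, Cd53 and Ctsk, at means of 274, 149 and 172 CPM, and in gld these had 92.5, 68.4 and 464. Other markers were near 0 in wt: the complement genes C1qa and C1qb went from 0.527 and 0.211 to 179.6 and 141 CPM, and C1qc from no wt count to 93.0, 171 and 295 CPM in gld. Lyz2, the lysozyme of myeloid cells, had 3.29, 119.5 and 18.4 CPM in wt and 1782, 2941 and 4984 in gld. Among the gld libraries the sum was 2787, 4157 and 6818 CPM, beside 87.6, 122 and 269.7 CPM of Cybb and 3460.5, 3286 and 3917 CPM of Gpx3 in the same order. All 3 were highest in gld 3. The marker sum and Cybb were lowest in gld 1 and Gpx3 in gld 2. The part of macrophages or osteoclasts in these differences was not tested.

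**Figure D5:**
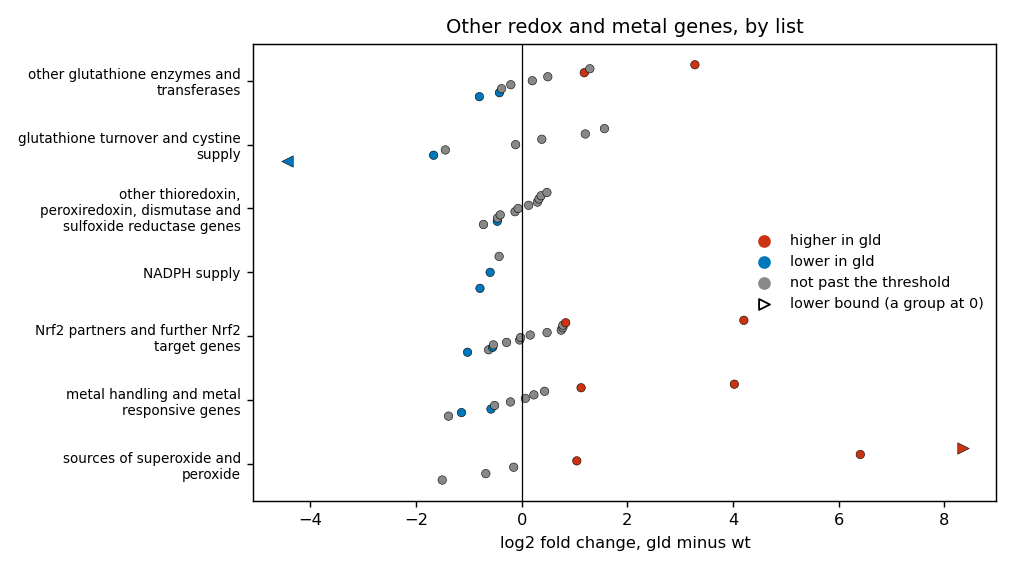
Log2 fold change, gld minus wt, of the 60 tested genes of the wider list, by function (red higher, blue lower, grey not past an edgeR adjusted p of 0.05). Triangles are lower bounds for the genes at 0 in a group, Cth in gld and Rac2 in wt; the rightmost points, Rac2 and Cybb, are both in the bottom list.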

How the data were processed

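Total RNA of the 6 libraries was sequenced as QuantSeq 3′ FWD single reads. Per the labels' protocols and design text, the authors' provider trimmed reads with Cutadapt and aligned them with STAR, and FastQC, DESeq2, Trim Galore and mm10 come from the submitters' processing notes. How reads were counted, on which strand and with which gene models is not given in the sources used here, so overlapping and antisense genes are uncertain. The deposited values are raw counts of reads for each Ensembl gene. One empty row was left out and 0 sample columns were unused. Symbols and GRCm38 positions were found for 51883 of 57180 identifiers in GENCODE M21. Promoter windows are from RefSeq, GRCm38.p6, and windows were found for all but Hmox1, Gclc, Gsr, Gsta4, Prdx6 and Sod3.

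Counts were filtered with filterByExpr (about 10 counts in 3 libraries, 15 in total), scaled by TMM and tested with edgeR 4.0.16 (R 4.3.3), quasi-likelihood, gld against wt without covariates. P-values were Benjamini-Hochberg adjusted over all 8692 genes, and 0.05 was the threshold. Standard errors are the absolute log2 fold change over the root of F. The fold against a group at 0 uses 3 counts over that group, and its error, like that of the interval, is counting error alone. The fit was tested on simulated counts with planted changes. It recovered 4 of 50 changes of 1.5-fold, 25 of 50 of 2-fold, 36 of 50 of 4-fold and 37 of 50 of 8-fold. It also called 5 genes without a planted change. A gene that did not pass may thus still differ. DESeq2 1.42.0, limma-voom 3.58.1, other scalings and filters, a replicate block and leaving out each library were run as alternatives. The members and gene lists were chosen with earlier results of these data known. All members are accounted for; of each wider list up to 4 called genes are named by adjusted p, and Sod2 was named after its value was seen.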

Additional observations from a re-analysis of the deposited data

How the results depend on the processing

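Of the 10 called antioxidant genes, 8 kept direction and call in all 13 alternatives (2 other tools, 2 other scalings, 2 other filters, the replicate block and leaving out each of the 6 libraries); Prdx4 and Cat did not. The number of genes called in all ran from 1224 to 1695, and by DESeq2 it was 1688. The members called higher were 5, or 3 with library size alone, and between 3 and 5 when 1 library was left out, with 3 without wt 1, gld 1 or gld 3; the members called lower ran from 5 to 7. With the replicate block, 4 members were higher and 5 lower, and the wider genes called lower went from 11 to 7. Leaving out 1 library, these ran from 4 to 10. Same-numbered libraries did not deviate together (correlations from −0.023 to −0.015). With 3 libraries in each group this cannot decide whether the numbers pair them, and the labels do not say. Among the 38 genes signs turned only for those that had not passed: Hmox1 was −0.0076 in limma-voom, −0.15 with library size alone, −0.026 with the block and from −0.29 to 0.15 with 1 library left out. Keap1 ran from −0.041 to 2.35, Nqo1 from −0.094 to 0.45, Gsr from −0.48 to 0.055 and Gpx8 from −0.79 to 0.16 with 1 library left out. The cause of these changes was not tested. The 16 members that could not be tested did not pass the low-count filter, 7 of them with no assigned read.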
